A study of Mus musculus with 18 samples.

Results

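The genes described here are those that make and regulate cholesterol and fatty acids: 36 listed symbols, from the sterol-sensing transcription factors down to the enzymes that elongate and desaturate fatty acids. A listed gene was kept when at least 3 of the 18 libraries held at least 10 counts, which left 35 of the 36 among 21003 symbols in the table. The gene left out was Scd1, a stearoyl-CoA desaturase, which reached 10 counts in 2 libraries. The 35 fall into 6 branches: 5 genes of SREBP control, 8 of the mevalonate pathway to squalene, 10 from squalene to cholesterol, 1 of sterol transfer, 4 of acetyl-CoA supply and fatty acid synthesis, and 7 desaturases, elongases and fatty acid binding proteins.

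The series concerns pH and the potential of hematopoietic stem cells, and its title names polyamines. Each RNA library was made from 100 sorted long-term hematopoietic stem cells (LT-HSCs) of mouse bone marrow, from animals of 8 to 12 weeks, given as B6.SJL in the growth protocol and as wild-type c57 B6 in the genotype label. There were 3 groups of 6 libraries, and the design text names 6 individual mice. Fresh cells were taken without culture (labelled pH 7.4). The culture groups had 48 h of culture at pH 7.4 or at pH 6.9. Both culture groups shared IMDM medium with 10% fetal bovine serum, 50 ng/ml each of mSCF, G-CSF and mTPO, 37 °C, 5% CO2 and 3% O2, so pH was the labelled difference between them, while fresh and cultured cells also differed in serum, cytokines and time. Serum brings lipids of its own, and the same serum content was given for both pH values.

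Cells build cholesterol from acetyl-CoA through mevalonate, the isoprenoids and squalene, and they build saturated fatty acids from the same acetyl-CoA through malonyl-CoA. Both routes are controlled by the sterol regulatory element-binding proteins (SREBPs), which are made as precursors in the endoplasmic reticulum membrane. When sterols are low, SCAP escorts the precursors to the Golgi for cleavage, and when sterols are high, the INSIG proteins hold SCAP back. SREBP-2 acts mainly on cholesterol genes and SREBP-1 mainly on fatty acid genes, and the released factors bind sterol response elements in promoters, often beside a CCAAT box bound by NF-Y. The mRNA level of an SREBP gene does not give the amount of the cleaved, active protein.

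RefSeq promoters (GRCm38.p6) were at hand for 28 of the 36 listed genes, 37 promoters in all, and were searched on both strands over the 250 bases before each start. The sterol response element letters TCACNCCAC stood in 1 of the 37 promoters (2.7%), against 1.05% of all 32851 promoters. The letters CCAAT stood in 23 of the 37 (62.2%), against 33.8% of all, and within the nearest 100 bases in 19 of the 37 (51.4%), against 18.9%. The E-box letters CACGTG stood in 6 of the 37 (16.2%), against 6.02%. The stretches below are the 150 bases before the start of Hmgcs1, which makes HMG-CoA and had the 1 match to the sterol response element letters, and of Fasn, the fatty acid synthase that is described in detail further on; both were chosen after the matches were seen. Capitals mark these letters and those of the CCAAT box, read on either strand.
Hmgcs1, chr13:119690201-119690350, plus strand: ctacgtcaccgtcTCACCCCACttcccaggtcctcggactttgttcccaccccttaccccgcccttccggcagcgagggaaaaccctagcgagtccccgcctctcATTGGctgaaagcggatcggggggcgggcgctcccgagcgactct
Fasn, chr11:120824548-120824697, minus strand: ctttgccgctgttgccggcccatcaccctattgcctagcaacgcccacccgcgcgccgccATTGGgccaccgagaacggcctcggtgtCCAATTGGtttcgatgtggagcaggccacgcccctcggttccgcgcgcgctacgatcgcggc
In Hmgcs1 the sterol response element letters began 137 bases before the start. In Fasn the CCAAT letters occurred 3 times, and the matches at 62 and 59 bases before the start overlap on opposite strands. A match describes letters only, and no binding was measured in these cells.

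Depth differed between libraries, and 3 of them stood apart. Fresh replicate 1 held 6311 counts and 3035 detected genes, so that 1 count there equals a normalized level of 80.2 in CPM (TMM-scaled counts per 1e+06). Many members were listed at 0 in that library. Fresh replicate 4 had 9408 detected genes and pH 6.9 replicate 3 had 8925. Some members were at or near 0 in both, while their summed mevalonate levels of 1389 and 1382 CPM were the highest of the 18 libraries. Of these sums, 876 and 813 CPM were from the single gene Fdps. The other 15 libraries, each with at least 1e+05 counts and 10000 detected genes, held 1640817 to 7508120 counts and 11225 to 12792 genes. In these 15, a count of 0 allows a level of up to 0.41 to 1.85 CPM, a floor of 3 counts that covers counting error only. Levels are CPM on the TMM scale, not per transcript length, so they are compared between libraries and never between genes. Levels given for single libraries below are those of these 15 unless another library is named. The libraries left out can differ from them: Fasn was at 0.88 CPM in pH 6.9 replicate 3.

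Library indices split each group by mouse number. Odd-numbered mice carried the i7 index 701 in the fresh group, 707 at pH 7.4 and 705 at pH 6.9, and even-numbered mice carried 702, 708 and 706. The pH comparison was therefore also made within each set of mice over the 15 libraries: 3 libraries at pH 7.4 against 2 at pH 6.9 in odd mice, and 3 against 3 in even mice. Within a set, the index differed together with the group, so the effects of index and pH cannot be told apart. The labels give no reason for the numbering.

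Marker levels of other cells also differed between sets. All 10 LT-HSC markers were detected in each of the 6 sets, and their summed level was 392 to 644 CPM at pH 7.4 in even mice, 563.7 to 869 in fresh cells and 898 to 1624 in the other cultured libraries. The 8 granulocyte-monocyte progenitor markers summed to 1784 to 5144 CPM at pH 7.4 in even mice, to 78.2 and 5557 in the fresh libraries of odd mice, and to 71.4 to 273 in the other libraries; Elane and Cebpe were at 0 in every pH 7.4 library of odd mice. The 7 macrophage and dendritic markers summed to 433 to 520 CPM at pH 6.9 in odd mice, to 382 to 409 in fresh even mice and to 108 to 284 elsewhere, with C1qb at 0 in each of the 15 libraries. The 12 mitosis genes summed to 693 to 1601 CPM at pH 6.9 in odd mice, 1512 to 3003 at pH 7.4 in odd mice, and 2547 to 4483 in the other sets. Between pH values in odd mice, where 11.1% of all genes were called, 3 of 4 tested macrophage and dendritic markers rose at pH 6.9 and 3 of 12 mitosis genes fell, and no LT-HSC, granulocyte-monocyte, erythroid, megakaryocyte or lymphoid marker was called. In even mice, where 6.75% of all genes were called, 4 of 7 tested granulocyte-monocyte markers fell and 1 rose, 1 of 9 LT-HSC markers rose and 1 of 3 lymphoid markers fell, and no marker of the other lists was called. The part of these cells and states in the results below was not tested, and in libraries of pooled cells, fewer cells of a type and less RNA per cell cannot be told apart.

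Over all 6 mice, no member passed the test between pH 6.9 and pH 7.4. In edgeR's quasi-likelihood test with Benjamini-Hochberg adjustment over 10104 genes, 0 of the 35 members passed an adjusted p of 0.05, as did 0% of all genes (254 at an unadjusted p under 0.05). The smallest adjusted p among the members was 0.997. At an unadjusted p under 0.05 there were 2 members, Srebf1 with a log2 change of -1.24 ± 0.56 (SE) and Elovl6 with -0.83 ± 0.38. DESeq2 called 4 genes, none of them a member. The members' median log2 change was -0.20, against -0.01 over all genes, with 7 of the 35 above 0. For 10 of the 35, the 95% interval lay within 1 log2 unit on either side of 0, and for the others a change of that size in at least 1 direction was not excluded.

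Within the sets of mice, a few members differed between the pH groups, whose index also differed. Among them were Srebf1, Sqle and genes of the fatty acid branches, and Fabp5 differed in opposite directions. In odd mice, 5 of the 35 members passed (background 11.1% of 10659 genes): Fabp5 and Fasn were higher at pH 6.9, and Acss2, Srebf1 and Sqle were lower. In even mice, 2 of the 35 passed (background 6.75%): Fabp5 and Elovl6 were lower at pH 6.9. The difference between the sets, tested as an interaction (odd minus even), passed for 5 members (background 18.1%): Fabp5, Acss2, Fasn, Elovl6 and Fads2. Counts of 5, 2 and 5 among 35 lie near these backgrounds, so the counts themselves are no result about the list. The 5 calls in odd mice became 2 with the replicate number as a block, 0 without pH 6.9 replicate 5 and 1 over all 18 libraries. Over all 18 libraries the 2 calls in even mice became 0 and the 5 differences became 1, and the 2 became 1 without pH 7.4 replicate 6. The 5 differences became 3 without pH 7.4 replicate 3, pH 7.4 replicate 6 or pH 6.9 replicate 5. Of the 35 fitted pH changes, 18 had opposite signs in the 2 sets. The share of all genes with opposite signs was not computed, so this count is no result about the list.

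Of the SREBP control genes, Srebf1 alone passed, and it did so in odd mice. Srebf1 (chr11:60199089-60222581, minus strand, mm10), which encodes SREBP-1, had 29.1, 43.7 and 18.6 CPM at pH 7.4 and 10.5 and 12.2 CPM at pH 6.9 in odd mice. In even mice it had 27.3, 16.8 and 26.6 CPM at pH 7.4 and 10.4, 17.36 and 16.6 CPM at pH 6.9. The groups did not overlap in odd mice, and in even mice 1 library at pH 6.9 stood above the lowest at pH 7.4. Fresh cells had 34.0 and 27.5 CPM in odd mice and 20.1 and 27.3 in even mice, all above every pH 6.9 library among the 15. The log2 change with pH was -1.42 ± 0.44 (SE) in odd mice (adjusted p 0.0414) and -0.66 ± 0.37 in even mice (adjusted p 0.323), and the difference between these changes did not pass (-0.76 ± 0.56, adjusted p 0.387). Over the 15 libraries the level was 27.2 ± 5.67 CPM (SD, n = 4) in fresh cells, 27.0 ± 9.57 (n = 6) at pH 7.4 and 13.4 ± 3.33 (n = 5) at pH 6.9. The call in odd mice was lost without any 1 of pH 7.4 replicates 1 or 3 or pH 6.9 replicates 1 or 5 (adjusted p 0.0751 to 0.179), with the replicate block (adjusted p 0.154) and over all 18 libraries (adjusted p 0.236).

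Srebf2, which encodes SREBP-2, did not pass in any comparison. In odd mice it had 78.2, 109 and 85.9 CPM at pH 7.4 and 84.5 and 78.6 CPM at pH 6.9. In even mice it had 87.8, 111 and 74.8 CPM at pH 7.4 and 77.2, 139 and 100 CPM at pH 6.9, and fresh cells had 103 and 89.7 CPM in odd mice and 122 and 53.1 in even mice. The pH groups overlapped in both sets, while in odd mice both pH 6.9 libraries lay below both fresh ones, and the log2 change with pH was -0.17 ± 0.31 (SE) in odd mice and 0.20 ± 0.28 in even mice.

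Scap, the escort of the SREBP precursors, had 22.4, 16.8 and 13.1 CPM at pH 7.4 and 18.5 and 26.5 CPM at pH 6.9 in odd mice. In even mice it had 21.9, 23.6 and 16.0 CPM at pH 7.4 and 16.2, 13.5 and 11.9 CPM at pH 6.9, while fresh cells had 33.0 and 19.3 CPM in odd mice and 25.2 and 20.4 in even mice. The pH groups overlapped in both sets, and the log2 changes of 0.39 ± 0.40 and -0.59 ± 0.36 (SE) did not pass.

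Insig1 and Insig2 encode the proteins that retain SCAP in the endoplasmic reticulum. Insig1, itself a classical SREBP target, had 29.1, 23.5 and 17.8 CPM at pH 7.4 and 16.0 and 23.7 CPM at pH 6.9 in odd mice. In even mice it had 24.2, 26.8 and 34.1 CPM at pH 7.4 and 33.1, 27.8 and 25.6 CPM at pH 6.9, and fresh cells had 27.2 and 41.0 CPM in odd mice and 16.91 and 26.7 in even mice. Its pH groups overlapped in both sets, while in odd mice both pH 6.9 libraries lay below both fresh ones, and its log2 change with pH was -0.21 ± 0.37 (SE) in odd mice and -0.00 ± 0.32 in even mice. Insig2 had 18.6, 42.0 and 60.6 CPM at pH 7.4 and 11.7 and 22.4 CPM at pH 6.9 in odd mice. In even mice Insig2 had 30.9, 40.0 and 30.9 CPM at pH 7.4 and 30.2, 35.3 and 62.0 CPM at pH 6.9, and fresh cells had 43.7 and 17.5 CPM in odd mice and 14.4 and 21.4 in even mice. The pH groups of Insig2 overlapped in both sets, while in even mice every kept cultured library lay above both kept fresh ones. Of the libraries left out, fresh replicate 4 had 79.4 CPM and pH 6.9 replicate 3 had 64.9, each above every kept library, and fresh replicate 1 had 0. The log2 changes of Insig2 with pH of -1.20 ± 0.50 (adjusted p 0.132) and 0.32 ± 0.42 (adjusted p 0.728) did not pass. Their difference had an adjusted p of 0.116, and of 0.0469 without pH 7.4 replicate 1 and 0.0462 without the filter on low counts.

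**Figure D1:**
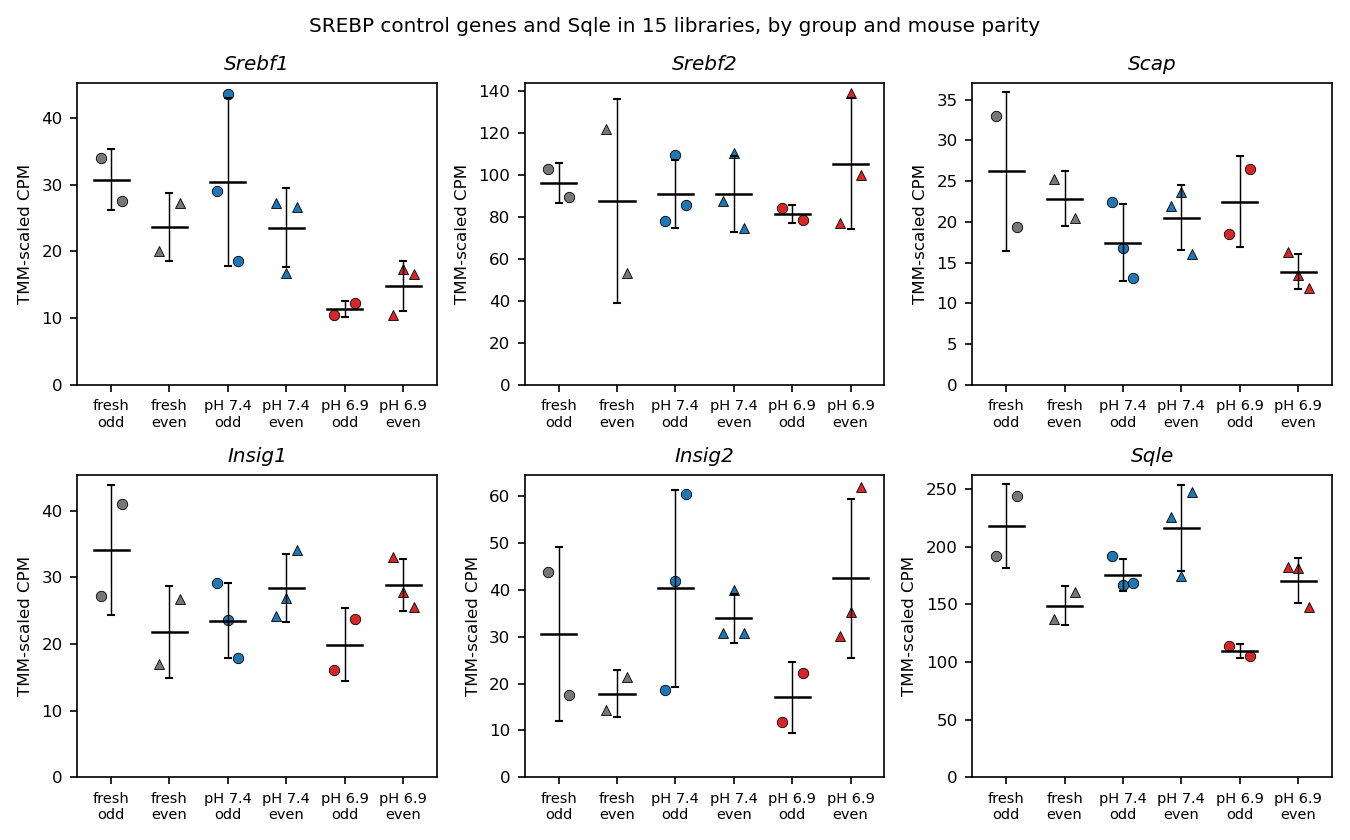
Levels in CPM (TMM scale) of Srebf1, Srebf2, Scap, Insig1, Insig2 and Sqle in the 15 libraries, with circles for odd mice, triangles for even mice and bars for the mean ± SD of each set. Srebf1 at pH 6.9 lies between 10.4 and 17.36 CPM, below every fresh library, and Sqle at pH 6.9 in odd mice lies at 105 and 114 CPM, below every other library.

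The 8 mevalonate pathway genes, from cytosolic acetoacetyl-CoA thiolase (Acat2) to squalene synthase (Fdft1), had no called pH change in either set, where 11.1% (odd mice) and 6.75% (even mice) of all genes were called. Their log2 changes ran from -0.41 to 0.76 in odd mice, with 4 of 8 above 0, and from -0.95 to -0.03 in even mice, with 0 of 8 above 0. The medians over all genes were -0.08 in odd mice and 0.04 in even mice. Summed over the 8 genes, the level was 722 to 849 CPM at pH 7.4 and 695 and 795 CPM at pH 6.9 in odd mice, against 865 to 1074 and 751 to 817 CPM in even mice. The even-mouse sums at pH 7.4 therefore lay above those at pH 6.9 without overlap, while the odd-mouse sums overlapped. Hmgcs1, whose promoter is printed above, had log2 changes of -0.20 ± 0.32 (SE) in odd mice and -0.28 ± 0.28 in even mice, neither of which passed.

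Mvk and Fdps were the mevalonate genes with the smallest p for a difference between the sets. Mvk, mevalonate kinase, had 6.68, 7.98 and 7.92 CPM at pH 7.4 and 12.3 and 13.3 CPM at pH 6.9 in odd mice. In even mice Mvk had 18.8, 12.9 and 22.4 CPM at pH 7.4 and 7.54, 8.08 and 12.3 CPM at pH 6.9, and fresh cells had 19.1 and 22.2 CPM in odd mice and 15 and 12.3 in even mice. Neither set overlapped between pH values, and the directions were opposite, but the log2 difference of 1.71 ± 0.59 (SE) stood just short of the threshold (adjusted p 0.0526). DESeq2 placed this difference past it (adjusted p 0.0352), as did edgeR without pH 7.4 replicate 4 (adjusted p 0.0481) or pH 6.9 replicate 6 (adjusted p 0.0441).

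Fdps, farnesyl diphosphate synthase, had 198, 194 and 286 CPM at pH 7.4 and 201 and 262 CPM at pH 6.9 in odd mice. In even mice Fdps had 290, 261 and 321 CPM at pH 7.4 and 210, 189 and 203 CPM at pH 6.9, and fresh cells had 200 and 355 CPM in odd mice and 229 and 227 in even mice. Even mice did not overlap between pH values and odd mice did, and the log2 changes of 0.04 ± 0.24 and -0.55 ± 0.21 (SE, adjusted p 0.135) did not pass.

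From squalene to cholesterol, 1 of 10 genes passed in odd mice and 0 of 10 in even mice, near the all-gene shares of 11.1% and 6.75%. The gene that passed was Sqle (chr15:59315077-59331192, plus strand, mm10), squalene epoxidase, the first oxygen-requiring step of sterol synthesis. Sqle had 192, 167 and 169 CPM at pH 7.4 and 114 and 105 CPM at pH 6.9 in odd mice. In even mice Sqle had 226, 175 and 248 CPM at pH 7.4 and 182, 182 and 148 CPM at pH 6.9, and fresh cells had 192 and 244 CPM in odd mice and 137 and 161 in even mice. The 2 pH 6.9 libraries of odd mice were the lowest of the 15, and the pH groups overlapped in even mice. Sqle fell by 0.69 ± 0.21 (SE) on the log2 scale in odd mice (adjusted p 0.0405), and its change in even mice was -0.36 ± 0.18 (adjusted p 0.276). The odd-mouse call was lost without any 1 of pH 7.4 replicates 1 or 3 or pH 6.9 replicates 1 or 5 (adjusted p 0.0597 to 0.188), without the filter on low counts (adjusted p 0.0699), with the replicate block (adjusted p 0.0592) and over all 18 libraries (adjusted p 0.438).

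The other 9 genes of this branch ran from -0.38 to 0.78 in odd mice and from -1.24 to 0.43 in even mice. The lowest in even mice was Hsd17b7, a sterol ketoreductase (-1.24 ± 0.78, adjusted p 0.391), and the smallest adjusted p was that of Lss, lanosterol synthase (-1.21 ± 0.43, adjusted p 0.0968). Dhcr7, which carries out a last step of cholesterol synthesis, had 11.9, 19.7 and 19.0 CPM at pH 7.4 and 23.4 and 34.7 CPM at pH 6.9 in odd mice. In even mice Dhcr7 had 12.9, 15.4 and 21.9 CPM at pH 7.4 and 8.70, 13.8 and 20.6 CPM at pH 6.9, and fresh cells had 37.9 and 41.8 CPM in odd mice and 8.93 and 13.2 in even mice. The pH groups of Dhcr7 were apart in odd mice only, where the log2 change of 0.78 ± 0.42 did not pass (adjusted p 0.246). Stard4, which carries sterols between membranes, changed by 0.20 ± 0.30 and -0.40 ± 0.27 and did not pass either.

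**Figure D2:**
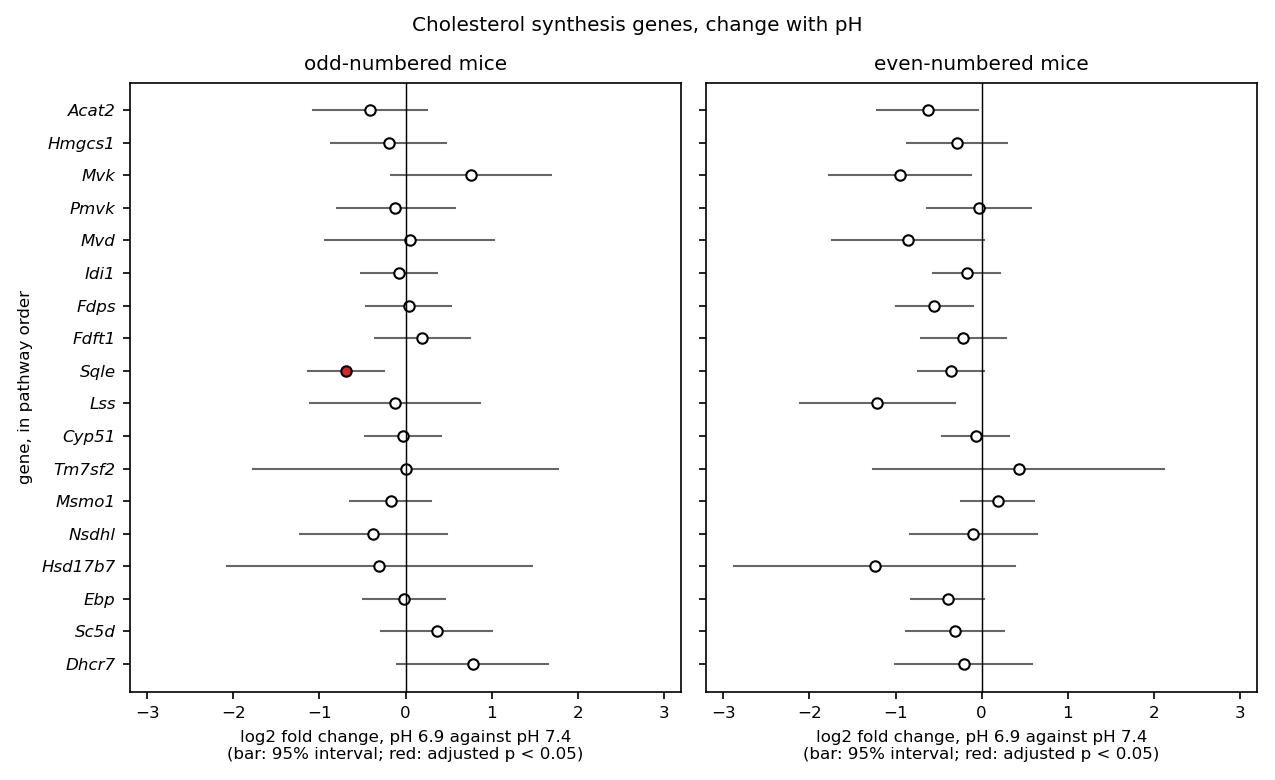
Fitted log2 change at pH 6.9 against pH 7.4 for the 18 mevalonate and sterol genes in odd mice (left) and even mice (right), with 95% intervals and red for an adjusted p under 0.05. Sqle in odd mice is the 1 gene in red, and in even mice 16 of the 18 points lie below 0, beside 5034 of all 10659 genes tested.

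For the 18 mevalonate and sterol genes together, the median log2 change with pH was -0.06 in odd mice and -0.30 in even mice, against -0.08 and 0.04 over all genes. No gene of the 18 passed the test of a difference between the sets in edgeR (1 at an unadjusted p under 0.05, 1 called by DESeq2), and these differences ran from -0.43 to 1.71.

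The 5 members that differed between the sets were all of the fatty acid branches, where 11 were tested, beside 18.1% of all genes. So small a count is no result about these branches. Fabp5 (chr3:10012548-10016607, plus strand, mm10), a cytosolic carrier of fatty acids, had the largest change. Fabp5 had 19.1, 20.4 and 23.4 CPM at pH 7.4 and 62.3 and 127 CPM at pH 6.9 in odd mice, and 105, 58.8 and 125 CPM at pH 7.4 and 35.4, 16.5 and 10.0 CPM at pH 6.9 in even mice. Fresh cells had 60.0 and 101 CPM in odd mice and 110 and 150 in even mice. Low values were thus those of pH 7.4 in odd mice and pH 6.9 in even mice, and neither overlapped with the other pH or with fresh cells. Fabp5 was 4.57-fold higher at pH 6.9 in odd mice (log2 2.19 ± 0.44 SE, adjusted p 0.00572) and 4.97-fold lower in even mice (-2.31 ± 0.42, adjusted p 0.00351). The difference was 4.50 ± 0.60 (adjusted p 0.000122) and passed under all 17 alternatives tried. Leaving out pH 6.9 replicate 5 ended the odd-mouse call (adjusted p 0.0845), and using all 18 libraries ended the even-mouse call (adjusted p 0.195). Near copies of Fabp5 in the mouse genome may share its reads.

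Acss2 (chr2:155517948-155585724, plus strand, mm10), which makes acetyl-CoA from acetate, had the opposite pattern. Acss2 had 98.7, 47.44 and 68.9 CPM at pH 7.4 and 22.2 and 19.1 CPM at pH 6.9 in odd mice, and 50.7, 23.8 and 37.1 CPM at pH 7.4 and 100.4, 37.42 and 101 CPM at pH 6.9 in even mice. Fresh cells had 45.6 and 20.9 CPM in odd mice and 18.5 and 21.0 in even mice. Odd mice did not overlap between pH values, while in even mice pH 6.9 replicate 4 lay within the pH 7.4 range. Acss2 fell by 1.80 ± 0.48 (SE) on the log2 scale in odd mice (adjusted p 0.0223), its change in even mice was 1.08 ± 0.39 (adjusted p 0.106), and the difference was -2.89 ± 0.62 (adjusted p 0.00343). The difference was lost over all 18 libraries (adjusted p 0.157), and the odd-mouse call was lost there too (adjusted p 0.203) and without pH 7.4 replicate 1, pH 6.9 replicate 1 or pH 6.9 replicate 5 (adjusted p 0.0782 to 0.145). The even-mouse change passed without pH 6.9 replicate 4 (adjusted p 0.0413) and without the filter on low counts (adjusted p 0.0138). Acly, which makes acetyl-CoA from citrate, did not pass, with -0.77 ± 0.31 in odd mice (adjusted p 0.12) and -0.09 ± 0.27 in even mice.

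Fasn (chr11:120805846-120824547, minus strand, mm10), which assembles palmitate from malonyl-CoA, had 30.5, 43.5 and 55.8 CPM at pH 7.4 and 87.0 and 98.3 CPM at pH 6.9 in odd mice. In even mice Fasn had 46.1, 59.2 and 59.9 CPM at pH 7.4 and 23.2, 47.0 and 25.2 CPM at pH 6.9, and fresh cells had 49.6 and 70.9 CPM in odd mice and 112 and 59.7 in even mice. The pH groups were apart in odd mice and overlapped by 1 library in even mice. Fasn was 2.13-fold higher at pH 6.9 in odd mice (log2 1.09 ± 0.34 SE, adjusted p 0.046), its change in even mice was -0.80 ± 0.32 (adjusted p 0.141), and the difference was 1.89 ± 0.47 (adjusted p 0.00847). The difference was lost over all 18 libraries (adjusted p 0.707). The odd-mouse call was lost there (adjusted p 0.828), with the replicate block (adjusted p 0.0718) and without any 1 of pH 7.4 replicates 1 or 3 or pH 6.9 replicates 1 or 5 (adjusted p 0.0922 to 0.187). Acaca, which makes the malonyl-CoA that Fasn uses, had changes of -0.07 ± 0.62 and -0.10 ± 0.56, neither of which passed. The gene that supplies malonyl-CoA and the gene that uses it thus differed in whether they passed, and their changes were not tested against each other.

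Elovl6 (chr3:129532355-129638495, plus strand, mm10), which elongates palmitate, had 21.9, 16.5 and 32.9 CPM at pH 7.4 and 25.9 and 29.3 CPM at pH 6.9 in odd mice. In even mice Elovl6 had 34.8, 45.3 and 53.1 CPM at pH 7.4 and 11.6, 12.6 and 21.4 CPM at pH 6.9, and fresh cells had 18.9 and 40.2 CPM in odd mice and 35.4 and 48.7 in even mice. The 3 even-mouse libraries at pH 6.9 lay below the other even-mouse libraries, and odd mice overlapped. Elovl6 fell by 1.53 ± 0.37 (SE) on the log2 scale in even mice (adjusted p 0.0188), its change in odd mice was 0.23 ± 0.41, and the difference was 1.77 ± 0.55 (adjusted p 0.0303). Leaving out pH 7.4 replicate 6, pH 6.9 replicate 2 or pH 6.9 replicate 4 ended the even-mouse call (adjusted p 0.067 to 0.117), as did using all 18 libraries, and the difference passed under 9 of 17 alternatives. It was lost over all 18 libraries (adjusted p 0.28) and without any 1 of pH 7.4 replicates 1, 3, 4 or 6 or pH 6.9 replicates 2, 4 or 5 (adjusted p 0.0519 to 0.0987).

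**Figure D3:**
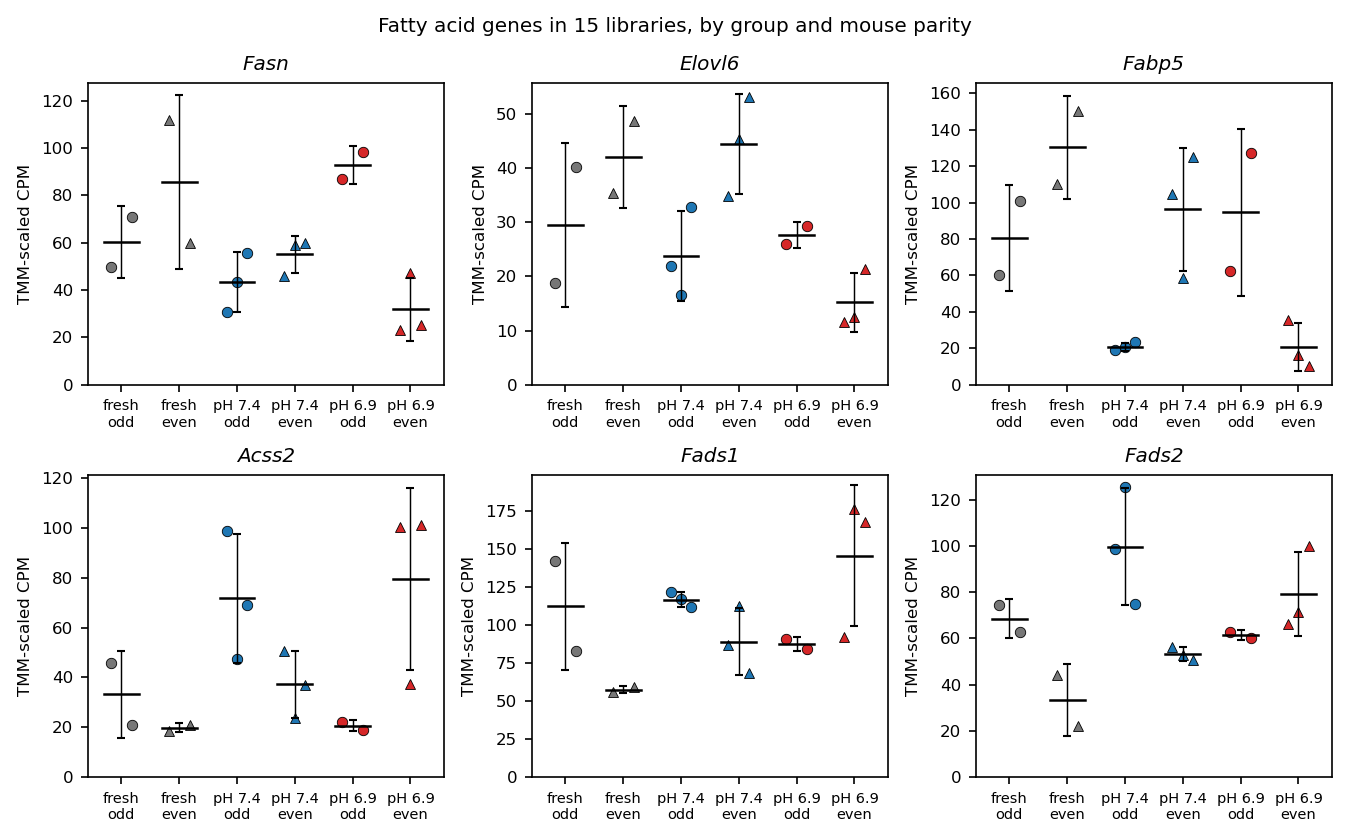
Levels in CPM (TMM scale) of Fasn, Elovl6, Fabp5, Acss2, Fads1 and Fads2 in the 15 libraries, with circles for odd mice, triangles for even mice and bars for the mean ± SD of each set. Fabp5 is 19.1 to 23.4 CPM at pH 7.4 in odd mice and 10.0 to 35.4 at pH 6.9 in even mice, below the other 4 sets.

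Fads1 and Fads2 are neighbouring genes on chromosome 19 that encode the desaturases of polyunsaturated fatty acid synthesis. Fads2 (chr19:10062765-10101746, minus strand, mm10) had 98.7, 125 and 74.8 CPM at pH 7.4 and 62.9 and 60.1 CPM at pH 6.9 in odd mice. In even mice Fads2 had 56.4, 52.9 and 50.6 CPM at pH 7.4 and 66.1, 71.5 and 99.9 CPM at pH 6.9, and fresh cells had 74.5 and 62.7 CPM in odd mice and 44.4 and 22.3 in even mice. Both sets were apart between pH values, in opposite directions. Neither change passed alone (-0.71 ± 0.30, adjusted p 0.141, and 0.56 ± 0.26, adjusted p 0.226), while their difference of -1.27 ± 0.40 did (adjusted p 0.0338), and under 7 of 17 alternatives. With the replicate block that difference had an adjusted p of 0.093, over all 18 libraries 0.526, and without any 1 of pH 7.4 replicates 1, 2, 3, 4 or 6 or pH 6.9 replicates 1, 5 or 6 it had 0.0516 to 0.103.

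Fads1 (chr19:10182888-10196877, plus strand, mm10) had 122, 117 and 112 CPM at pH 7.4 and 90.7 and 84.6 CPM at pH 6.9 in odd mice. In even mice Fads1 had 87.1, 112 and 68.3 CPM at pH 7.4 and 92.2, 177 and 168 CPM at pH 6.9, and fresh cells had 142 and 82.8 CPM in odd mice and 55.8 and 59.1 in even mice. Odd mice did not overlap between pH values and even mice did, and the difference of -1.12 ± 0.39 (SE) did not pass (adjusted p 0.0512). It passed in DESeq2 (adjusted p 0.0381), without the filter on low counts (adjusted p 0.024), and without pH 7.4 replicate 4 (adjusted p 0.0308) or pH 6.9 replicate 2 (adjusted p 0.0146). Counting may split reads between the related desaturase genes.

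Elovl1, which elongates very long saturated fatty acids, had 237, 259 and 359 CPM at pH 7.4 and 334 and 327 CPM at pH 6.9 in odd mice. In even mice Elovl1 had 284, 365 and 383 CPM at pH 7.4 and 273, 240 and 226 CPM at pH 6.9, and fresh cells had 270 and 378 CPM in odd mice and 318 and 341 in even mice. The groups overlapped in odd mice and were apart in even mice, and neither change passed (0.21 ± 0.21 and -0.50 ± 0.19, adjusted p 0.127). Their difference of 0.71 ± 0.29 passed only without pH 7.4 replicate 5 (adjusted p 0.0941 with it and 0.0243 without). Scd2 and Elovl5, which desaturate and elongate, changed by -0.10 ± 0.29 and -0.21 ± 0.27 in odd mice and by -0.40 ± 0.26 and -0.23 ± 0.24 in even mice, with none past the threshold.

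**Figure D4:**
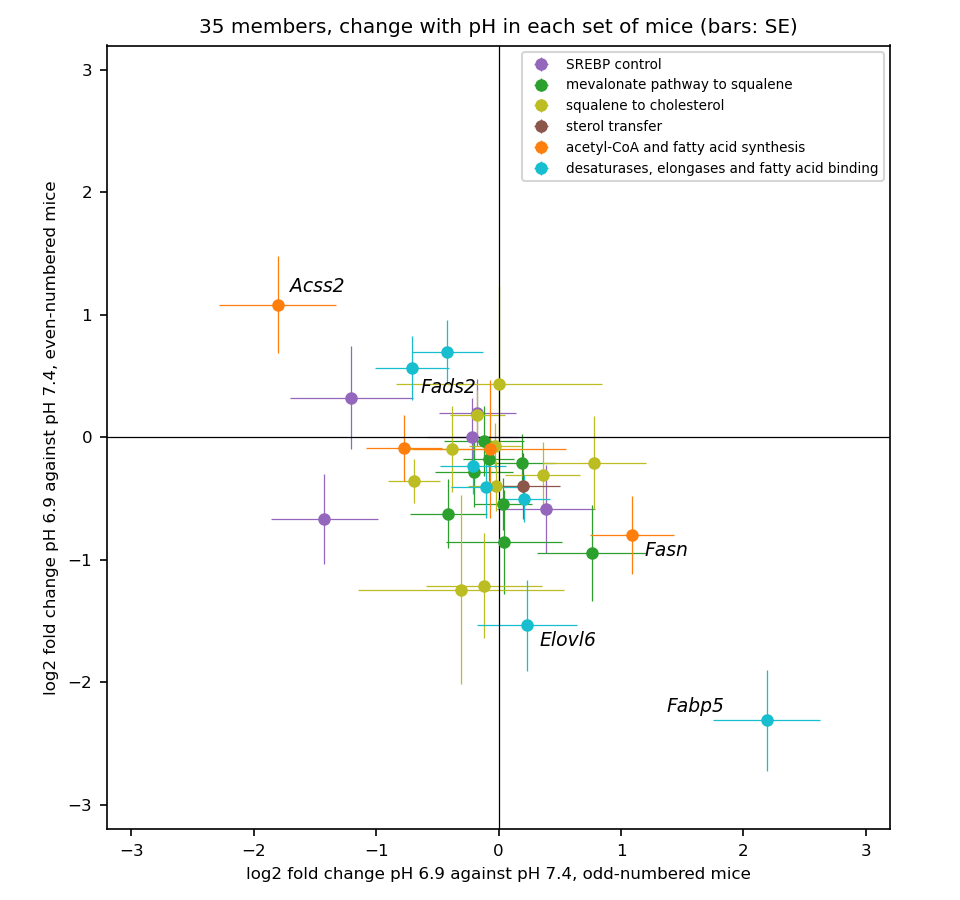
Fitted log2 change at pH 6.9 against pH 7.4 of the 35 members in odd mice (horizontal) and even mice (vertical), with bars for 1 SE, colours for the branches and names for the 5 members whose difference between the sets passed. Fabp5 lies at 2.19 and -2.31 and Acss2 at -1.80 and 1.08, while most mevalonate and sterol genes lie nearer to 0.

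The sets of mice were also compared within each culture pH, over libraries that the pH comparisons use too, so these values are another view of the same libraries. At pH 7.4, 1 member passed (background 3.33%): Fabp5 was higher in even mice (log2 2.21 ± 0.41 SE, adjusted p 0.00812). At pH 6.9, 4 members passed (background 14.4%). Acss2 was higher in even mice by 1.96 ± 0.48 (adjusted p 0.0113) and Sqle by 0.64 ± 0.21 (adjusted p 0.0466). Fasn was lower in even mice, by a log2 change of -1.54 ± 0.35 (adjusted p 0.00677), and Fabp5 by one of -2.30 ± 0.44 (adjusted p 0.00322). Of 10 alternatives, the call held under 2 for Sqle, 7 for Acss2, 8 for Fasn and 9 for Fabp5. That of Sqle was lost with DESeq2 size factors (adjusted p 0.0544), without the filter on low counts (adjusted p 0.0873) and without pH 6.9 replicates 2, 4 or 6 (adjusted p 0.0535 to 0.11). Without pH 6.9 replicate 5 none of these 4 passed, and Fabp5 had an adjusted p of 0.0607. Mvk at pH 7.4 was 18.03 ± 4.75 CPM (SD, n = 3) in even mice and 7.53 ± 0.73 (n = 3) in odd mice, and did not pass in edgeR (adjusted p 0.0848). In DESeq2 Mvk did pass at pH 7.4 (log2 1.25, adjusted p 0.0432), as did Fads2 (log2 -0.91, adjusted p 0.0244).

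Culture was compared with fresh cells over the same fresh libraries for both pH values, so the comparisons that follow share libraries. Over 6 mice, 0 of 35 members passed in edgeR at pH 7.4 (background 0%, 381 genes at an unadjusted p under 0.05, 0 called by DESeq2). At pH 6.9 against fresh cells, 0 of 35 passed as well (background 0%, 229 genes at an unadjusted p under 0.05, 0 called by DESeq2). The median log2 change of the members was 0.19 at pH 7.4 and -0.01 at pH 6.9, against 0.08 and 0.02 over all genes.

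At pH 7.4 against fresh cells within the sets, edgeR called 0 members in odd mice (background 0.113%, 4 members at an unadjusted p under 0.05, 1 called by DESeq2) and 0 in even mice (background 0.103%, 6 members at an unadjusted p under 0.05, 0 by DESeq2). The member called by DESeq2 was Fabp5, with -1.94 ± 0.44 (SE) and an adjusted p of 0.0827 in edgeR and 0.00318 in DESeq2. Mvk had -1.45 ± 0.43 and Dhcr7 -1.23 ± 0.42 in odd mice, neither of which passed. Each of these comparisons rests on 2 fresh libraries, and the signs that follow were not tested as a set. Of the 18 mevalonate and sterol genes, 16 were negative in odd mice (median -0.24) and 17 were positive in even mice (median 0.43). The medians over all genes were 0.00 and 0.02. The smallest adjusted p among the latter was 0.232, for Cyp51, the lanosterol demethylase, with 0.65 ± 0.21.

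At pH 6.9 against fresh cells, 1 member passed in odd mice (background 0.6%): Sqle fell by 1.01 ± 0.23 (SE) on the log2 scale (adjusted p 0.0479). This call passed under 3 of 10 alternatives and was lost without each library of either group in turn. In even mice, 6 members passed (background 10.9%), all among the 11 tested genes of the fatty acid branches. With 2 fresh libraries and so small a list, this count is no result about these branches. Acss2 rose by 2.00 ± 0.48 (adjusted p 0.0117), Fads1 by 1.34 ± 0.30 (adjusted p 0.00805) and Fads2 by 1.25 ± 0.31 (adjusted p 0.0146). Fabp5 fell by 2.74 ± 0.45 (adjusted p 0.00148), Elovl6 by 1.45 ± 0.40 (adjusted p 0.0264) and Fasn by 1.43 ± 0.34 (adjusted p 0.0124). In even mice at pH 6.9, then, Acss2 and the Fads desaturases were above fresh cells while Fasn, Elovl6 and Fabp5 were below them. The desaturase Scd2 did not pass, with 42.6 ± 11.6 CPM (SD, n = 3) at pH 6.9 and 64.4 ± 17.3 (n = 2) in fresh cells. The count of 6 became 2 without fresh replicate 2 or fresh replicate 6, and 1 over all 18 libraries, where Fabp5 passed (adjusted p 0.028). Leaving out pH 6.9 replicate 6 also ended the calls of Acss2, Fads2 and Fasn (adjusted p 0.0513 to 0.0697), and leaving out pH 6.9 replicate 2 or 4 that of Elovl6 (adjusted p 0.0749 and 0.0882). No mevalonate or sterol gene passed in even mice; Cyp51 had 0.59 ± 0.21 (adjusted p 0.0875, and 0.0487 without pH 6.9 replicate 4).

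Other lists of lipid genes were read in the same fits. The shares called over all genes were again 11.1% in odd mice, 6.75% in even mice and 18.1% for the difference between the sets. Of 8 further genes of SREBP processing and turnover, 1 rose and 1 fell with pH in odd mice, 1 fell in even mice, and 2 differed between the sets, counts too small to stand apart from those shares. Tmem97, a sterol-responsive membrane protein of the endoplasmic reticulum, had 93.6 to 128 CPM at pH 7.4 and 177 to 195 at pH 6.9 in odd mice, and 254 to 347 and 80.4 to 102 CPM in even mice. Tmem97 was apart between pH values in both sets, rose by 0.78 ± 0.24 (SE, adjusted p 0.0405) in odd mice and fell by 1.64 ± 0.22 (adjusted p 0.000603) in even mice, and its difference of 2.43 ± 0.32 (adjusted p 8.45e-05) passed under all 17 alternatives. Its odd-mouse call was lost with the replicate block (adjusted p 0.107) and without any 1 of pH 7.4 replicates 1 or 3 or pH 6.9 replicates 1 or 5, and both calls were lost over all 18 libraries (adjusted p 0.395 and 0.211). Erlin2, an endoplasmic reticulum protein of sterol-regulated protein turnover, differed by -1.45 ± 0.43 (adjusted p 0.0253), a call lost with the replicate block (adjusted p 0.064), over all 18 libraries (adjusted p 0.171) and without pH 7.4 replicate 4 or pH 6.9 replicates 4 or 5.

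Of 9 other sterol and isoprenoid genes, 1 fell in odd mice, 1 fell in even mice and 1 differed between the sets, which is near the all-gene shares of 11.1%, 6.75% and 18.1%. The gene that differed was Pdss1, which makes the side chain of coenzyme Q, with a difference of 1.81 ± 0.53 (SE, adjusted p 0.0231). Of 22 other genes of fatty acid synthesis and activation, 18 were tested; 2 rose and 1 fell in odd mice, 2 rose and 2 fell in even mice, and 3 differed between the sets. The 3 of 18 that differed are near the all-gene share of 18.1%, and the 3 and 4 of 18 called in odd and even mice stand beside 11.1% and 6.75%. Mecr, of mitochondrial fatty acid synthesis, rose by 0.96 ± 0.23 in odd mice (adjusted p 0.0121) and fell by 0.83 ± 0.20 in even mice (adjusted p 0.0218). Hacd1, a dehydratase of the elongation cycle, rose by 1.04 ± 0.29 (adjusted p 0.0261) and fell by 1.03 ± 0.26 (adjusted p 0.0264). Me1, the malic enzyme that supplies NADPH, rose by 1.41 ± 0.36 in even mice (adjusted p 0.0262) and had -0.54 ± 0.42 in odd mice. Every difference named in this list and that of Pdss1 was lost over all 18 libraries (adjusted p 0.0586 to 0.24). The calls of Mecr, Hacd1 and Me1 within sets were lost there too. With single libraries removed, the differences of Mecr and Hacd1 held, that of Me1 was lost without pH 6.9 replicates 4 or 5, and that of Pdss1 without pH 7.4 replicate 6 or pH 6.9 replicates 5 or 6 and with the replicate block (adjusted p 0.0567). Within sets, the Mecr call in odd mice was lost without pH 6.9 replicate 5, and that in even mice without pH 7.4 replicates 2, 4 or 6 or pH 6.9 replicates 2 or 6. The Hacd1 call in odd mice was lost without any odd-mouse library but pH 7.4 replicate 5 and with the replicate block, that in even mice without pH 7.4 replicates 2 or 6 or pH 6.9 replicates 2 or 6, and that of Me1 without any even-mouse library but pH 6.9 replicate 2.

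Of 11 genes of sterol efflux, LXR and esterification, 9 were tested; 2 fell in odd mice, 1 rose in even mice and 3 differed between the sets, beside all-gene shares of 11.1%, 6.75% and 18.1%, and counts this small are no result about the list. All 9 had a negative change in odd mice (median -0.79) and all 9 a positive change in even mice (median 0.51), against -0.08 and 0.04 over all genes. Summed over the list, the level was 694 to 832 CPM at pH 7.4 and 375 to 407 at pH 6.9 in odd mice, and 548 to 566 and 793 to 835 CPM in even mice, so neither set overlapped. Fresh cells had 533 and 616 CPM in odd mice and 386 and 430 in even mice. Much of the change with pH in these sums came from Soat1, in both sets. Soat1, which esterifies cholesterol for storage, had 281 ± 106 CPM (SD, n = 3) at pH 7.4 and 45.2 ± 17.7 (n = 2) at pH 6.9 in odd mice, and 127 ± 10.3 (n = 3) and 313 ± 36.3 (n = 3) in even mice. Soat1 fell by 2.59 ± 0.33 (SE, adjusted p 0.000334) in odd mice and rose by 1.29 ± 0.26 (adjusted p 0.00753) in even mice, and its difference of -3.89 ± 0.42 (adjusted p 1.81e-05) passed under all 17 alternatives. Lpcat3, which puts polyunsaturated chains into phospholipids, fell by 1.06 ± 0.27 in odd mice (adjusted p 0.0162) and had 0.05 ± 0.23 in even mice. Its difference of -1.12 ± 0.35 (adjusted p 0.0306) passed under 7 of 17 alternatives, and was lost with the replicate block (adjusted p 0.065), over all 18 libraries (adjusted p 0.424) and without any 1 of pH 7.4 replicates 2, 3, 4 or 5 or pH 6.9 replicates 1, 2, 4 or 5 (adjusted p 0.0508 to 0.102). Mylip, an E3 ubiquitin ligase induced by LXR, differed by -3.51 ± 1.03 (adjusted p 0.0237), a call lost over all 18 libraries and without pH 7.4 replicates 2 or 6 or pH 6.9 replicate 5 (adjusted p 0.056 to 0.112). The Soat1 rise in even mice was lost over all 18 libraries (adjusted p 0.688), and the Lpcat3 fall was lost there (adjusted p 0.271) and without pH 6.9 replicates 1 or 5 (adjusted p 0.114 and 0.0582).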

How the data were processed

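RNA was amplified from 100 sorted cells per library with SMART-Seq v4 and Nextera XT, which keep no strand, and sequenced as paired 75-base reads, per the labels' protocols. The deposited table holds estimated counts per gene symbol made by the authors, all whole numbers; kallisto and mm10 are named per the submitters' processing notes, and the version, the transcript set and how transcripts were summed or rounded are not given in the sources used here. Quantification by estimated sharing can divide reads between near copies. No symbol or sample column was left unmapped (0 columns).

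Counts were used as deposited. In R 4.3.3, edgeR 4.0.16 (TMM, robust quasi-likelihood test, filterByExpr on the 3 groups, Benjamini-Hochberg adjustment over all genes tested, threshold 0.05) gave 3 comparisons over 18 libraries (10104 genes) and 9 over 15 libraries in 6 sets (10659 genes). The 15 had at least 1e+05 counts and 10000 detected genes; totals were 6311 to 7508120 over all 18. limma 3.58.1 was loaded by edgeR, and DESeq2 1.42.0 was an alternative, beside its size factors, other filters on low counts, a replicate block, all 18 libraries, and leaving out each library. The scripts were tested on simulated data. Replicates are separate mice. The design text names 6 individual mice, so replicate numbers may pair libraries across groups. The main fits used no pairing, and the replicate block was an alternative only. Same-numbered libraries' deviations from their set means correlated between -0.10 and 0.16 (12 pairs), against -0.15 to 0.12 for other numbers (25 pairs). Coordinates are from GENCODE M21 (mm10) and promoters from RefSeq (GRCm38.p6).

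The members and lists were chosen with earlier results of these data known. Values in each of the 15 kept libraries are given for the SREBP control genes. The same holds for the 10 members with the smallest p of the difference between sets. Other members are given by branch, with those called or at a branch's extreme, and up to 3 genes per further pathway list. The values of Sqle follow from its call.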

Additional observations from a re-analysis of the deposited data

Results flagged for a closer look

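The level of Fdps stood far from the others of its group in 2 libraries: 876 CPM in fresh replicate 4, where the other 5 fresh libraries had 80.2 to 355, and 813 CPM in pH 6.9 replicate 3, where the other 5 had 189 to 262. Both are among the 3 libraries left out of the comparisons within sets, with few detected genes. Of 45 groups of levels examined in this way, 2 had such a library, and chance gives about 1 in 20.

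The change with pH differed between odd and even mice for 5 members by the interaction test, with log2 differences of 4.50 for Fabp5, -2.89 for Acss2, 1.89 for Fasn, 1.77 for Elovl6 and -1.27 for Fads2. Over all genes 18.1% passed the same test. Index, marker levels and mouse number all moved with the sets, and their part was not tested.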

How the results depend on the processing

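No call changed direction under any alternative run. Members called in odd mice between pH values (5) became 2 with the replicate block and 1 over all 18 libraries, and ran from 0 to 5 with a library left out, with 0 without pH 6.9 replicate 5. In even mice (2) they became 0 over all 18 libraries and ran from 1 to 2, with 1 without pH 7.4 replicate 6. Differences between the sets (5) became 8 without the filter, 4 with the replicate block and 1 over all 18 libraries, and ran from 3 to 6. Even against odd mice at pH 7.4 (1) became 2 without the filter, 3 in DESeq2 and 0 over all 18 libraries, and ran from 1 to 2; at pH 6.9 (4) the count became 1 over all 18 libraries and ran from 0 to 4. Against fresh cells, pH 7.4 in odd mice (0) became 1 without the filter and 1 in DESeq2, pH 6.9 in odd mice (1) became 0 with DESeq2 size factors, with the replicate block and over all 18 libraries, and ran from 0 to 0, and pH 6.9 in even mice (6) became 1 over all 18 libraries and ran from 2 to 6. The 3 comparisons of 6 mice and pH 7.4 against fresh cells in even mice stayed at 0 members under every alternative run. Over all 18 libraries the calls of members that held were those of Fabp5 in odd mice (adjusted p 0.0487), in the difference (0.00341), in even against odd mice at pH 6.9 (0.0355) and in pH 6.9 against fresh cells in even mice (0.028). No paired analysis was possible for even against odd mice because the mice differ. DESeq2 size factors moved the median of all genes by at most 0.06 (log2) and the sign of 0 to 3 of the 35 members. Sets of 2 leave a lone library when 1 is removed, which was assumed to vary like the others. The cause of these changes was not tested.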

Other observations

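Scd1, the stearoyl-CoA desaturase that was not kept for its low counts, had 13 counts in each of the 2 pH 6.9 libraries of odd mice (8.02 and 1.78 CPM). It had 0 counts in the 3 pH 7.4 libraries of odd mice and in the 3 pH 6.9 libraries of even mice, and 0 to 5 counts in every other library. Without the filter on low counts it passed in odd mice (edgeR adjusted p 0.0418); its paralog Scd2 did not pass.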
